A study of Bos taurus with 8 samples.

Results

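The ADAM and ADAMTS genes encode metalloproteases and their relatives, and they were taken from the gene count table of bovine testis by symbol, as ADAM, ADAMDEC, ADAMTS or ADAMTSL followed by a number and at most 1 further letter. This rule found 42 of the 30983 genes in the table, namely 18 ADAM genes, 1 ADAMDEC gene, 19 ADAMTS genes and 4 ADAMTSL genes. The symbols are the identifiers that the table itself gives, and all 42 were found again by symbol in the RefSeq gene table of the assembly ARS-UCD2.0. Testis tissue of Chinese Red Steppes cattle, a dual-purpose breed of northeast China, was sampled from mature bulls of 24 months at slaughter (n = 3 mRNA libraries) and from immature calves of 1 day at castration (n = 3 mRNA libraries). Each library came from the testicular lobules of 1 animal, and no treatment or genotype separated the animals. Age, slaughter and castration cannot be told apart in this design.

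ADAM proteins are membrane-anchored and carry a metalloprotease domain and a disintegrin domain. Widely expressed members cut the outer parts off other membrane proteins, a step called shedding. Another group is made in the germ cells and includes proteins of the sperm surface, and many of its members have lost the catalytic site. ADAMTS proteins are secreted, carry thrombospondin repeats, and cut matrix proteins such as proteoglycans and procollagens, and the ADAMTSL proteins share the repeats but have no protease domain.

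Library totals ran from 14139087 to 15846257 counts. Levels are given as CPM, counts scaled to the size of the library with TMM factors, and differences as log2 fold changes of mature over immature testes from edgeR's quasi-likelihood test, with p-values adjusted over the 19972 genes left by a filter that removes genes with few counts. Calls of higher or lower required an adjusted p under 0.05 and a log2 fold change beyond 1 in size. Summed late germ cell markers reached 10407, 14312 and 16483 CPM in mature testes, against 13.7, 11.7 and 14.1 CPM in immature testes, and all 10 were called higher. For 7 of these, all 3 mature libraries but not all 3 immature ones reached the cutoff of the filter. Below, this is called passing through the mature libraries alone, with the reverse for the immature libraries. Such a route favours the direction that was found. All 6 fibroblast and stroma markers, all 6 endothelial markers and 7 of 8 Sertoli markers were called lower, and 1 Sertoli marker higher. Other lists were less uniform. Of 5 peritubular and smooth muscle markers 4 were lower and 0 higher, and of 7 Leydig markers 3 were lower and 0 higher. Of 6 early germ cell markers 1 was lower and 2 higher, and of 4 cartilage markers tested 0 were lower and 1 higher. The summed stromal markers stood at 800, 525 and 322 CPM in mature testes, against 13962, 10193 and 22995 CPM in immature testes. In such bulk tissue, fewer cells of a type and less RNA per cell cannot be told apart, and the part of these cell type markers in the differences below was not tested.

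All 42 genes had at least 1 count, and 38 passed the filter. Among these 38, 10 were higher in mature testes (26.3%), beside 31.7% of all genes tested, and 19 were lower, beside 30.4% of all genes tested. Taken in both directions, 62.0% of all genes tested were called. The shares of 31.7% higher and 30.4% lower also stand beside the calls of each group and list in this report. The values of the age groups did not overlap for 33 of the 38 genes (86.8%), beside 81.7% of all genes tested. Of the 33, 12 lay above and 21 below in mature testes. Wherever age groups are called apart below, the same 81.7% of all genes tested stands beside it.

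The ADAM and ADAMTS sides of the family are given next to each other, with no test between them. Of 16 ADAM and ADAMDEC genes tested, 8 were higher and 6 lower in mature testes, and their log2 fold changes ran from −6.18 to 10.73 with a median of 0.55. Of 22 ADAMTS and ADAMTSL genes tested, 2 were higher and 13 lower, with a median of −2.17 and a range of −5.05 to 2.77, and 4 were higher with limma-voom or without immature replicate 1. Over all genes tested, 31.7% were higher and 30.4% lower, with a median of −0.04. On the ADAM side, the 6 germ cell ADAM genes tested were all higher, with a median of 9.37. The other 10 ADAM and ADAMDEC genes had a median of −1.46, with 2 higher and 6 lower. The 6 germ cell ADAM genes passed the filter through the mature libraries alone, so the filter favoured their direction. ADAMTSL3 also passed through the mature libraries alone, and ADAMDEC1, ADAMTS12 and ADAMTS15 through the immature libraries alone.

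**Figure D1:**
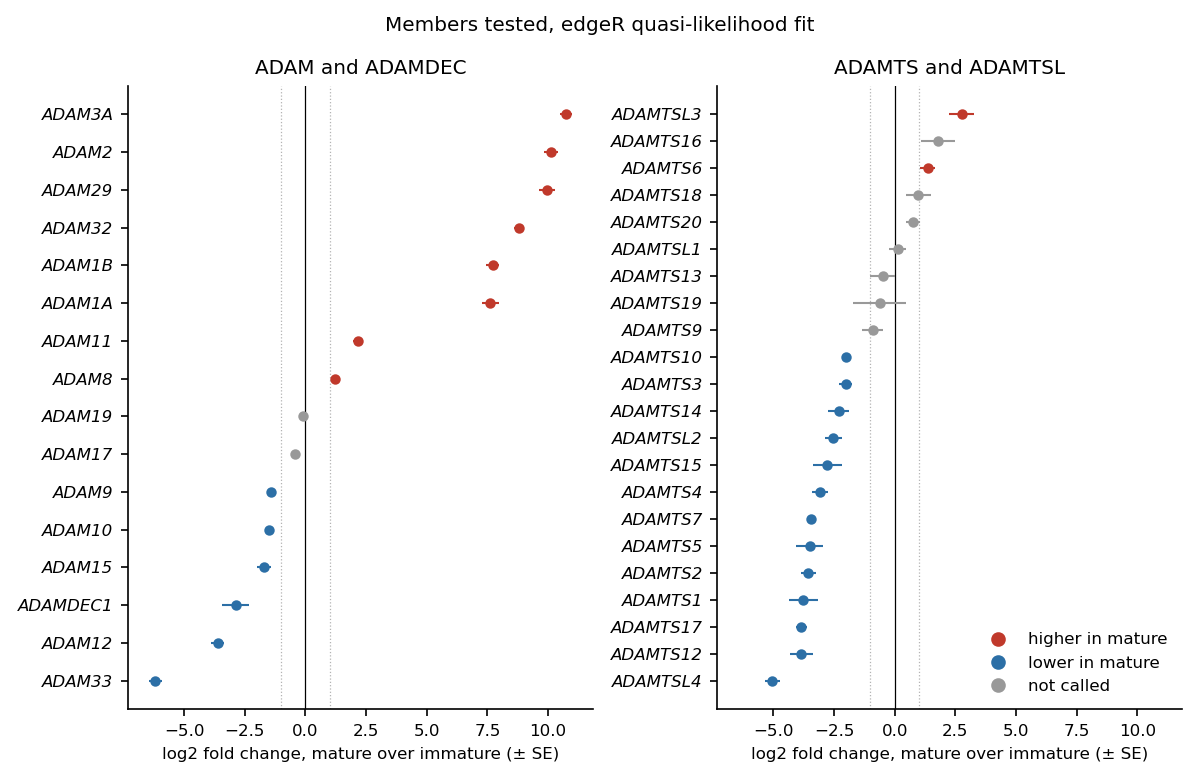
Log2 fold change of mature over immature testes (horizontal axis, edgeR, bars give the SE) for the 16 ADAM and ADAMDEC genes (left) and the 22 ADAMTS and ADAMTSL genes (right) that were tested, with dotted lines at the fold threshold. The 6 germ cell ADAM genes lie between 7.61 and 10.73, and 13 of the ADAMTS and ADAMTSL genes lie to the left of the lower line.

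Levels were also summed over each library. Summed ADAM and ADAMDEC genes took 1831, 1792 and 1770 CPM in mature testes, against 475, 480 and 597 CPM in immature testes. Summed ADAMTS and ADAMTSL genes took 173, 171 and 168 CPM in mature testes, against 632, 578 and 910 CPM in immature testes. The ratio of the ADAM sum to the ADAMTS sum was 10.6, 10.5 and 10.5 in mature testes, against 0.752, 0.830 and 0.656 in immature testes, so that the side with more counts changed between the ages. These are sums of counts without correction for transcript length, described with no test. On the ADAM side, ADAM3A alone gave 44.4% of the mature sum, and ADAM33 gave 30.0% of the immature sum. On the ADAMTS side, ADAMTS6 gave 19.9% of the mature sum, and ADAMTSL4 gave 16.5% of the immature sum.

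**Figure D2:**
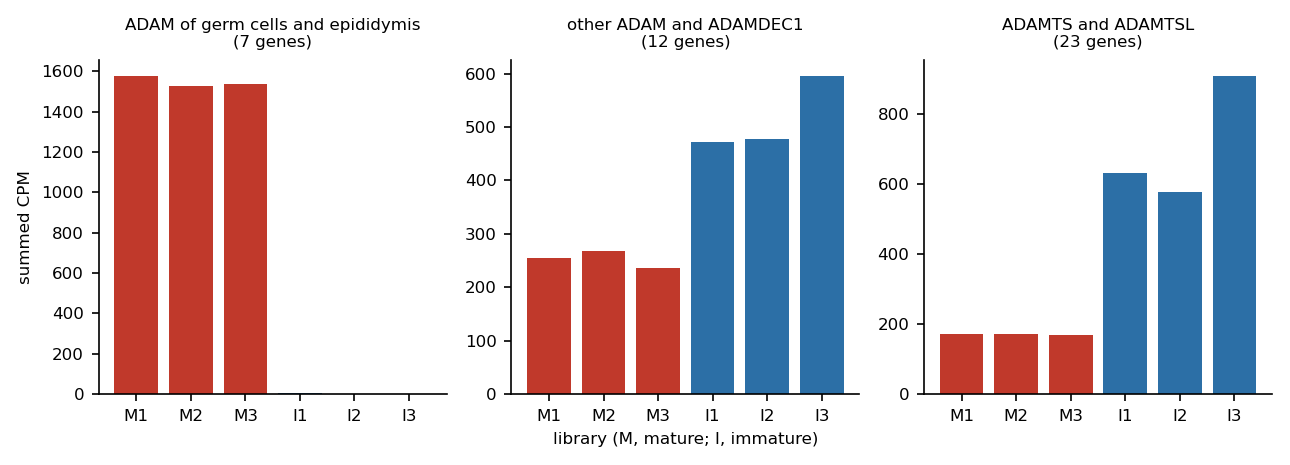
Summed CPM per library (vertical axes, each from 0 and with its own scale) of the 7 ADAM genes of germ cells and epididymis, the other 12 ADAM and ADAMDEC genes and the 23 ADAMTS and ADAMTSL genes, with mature libraries M1 to M3 left of immature libraries I1 to I3. The germ cell and epididymis group averaged 1545 CPM in mature testes and 2.18 CPM in immature testes, whereas the other groups were lower in every mature library than in any immature library.

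Among the germ cell ADAM genes, ADAM3A encodes a relative of cyritestin, which in mice is needed for sperm to pass into the oviduct. It had 13586, 11558 and 11128 counts in mature testes, against 11, 5 and 5 counts in immature testes. This is 798 ± 46.0 CPM in mature testes and 0.464 ± 0.236 CPM in immature testes (SD, n = 3 each), with a log2 fold change of 10.73 (SE 0.24, adjusted p = 1.44e-08 by edgeR). Every mature library lay far above every immature one, and the mature libraries were close to each other.

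ADAM2 is fertilin beta, the partner of the ADAM1 proteins in the fertilin complex of sperm. It had 4916, 4529 and 5323 counts in mature testes, against 8, 3 and 2 counts in immature testes, with a log2 fold change of 10.11 (SE 0.30, adjusted p = 3.01e-08). Leaving out immature replicate 1, the highest of the immature libraries, gave 10.88. The genes of the other fertilin subunit rose as well. ADAM1B had 1498, 1487 and 1479 counts in mature testes, against 6, 11 and 4 counts in immature testes, a log2 fold change of 7.71 (SE 0.25). ADAM1A had 423, 474 and 535 counts in mature testes, against 4, 2 and 1 counts in immature testes, a log2 fold change of 7.61 (SE 0.35), which was 8.21 without immature replicate 1. The groups were far apart for all 3 fertilin genes. The ADAM1 genes are close copies, and the treatment of reads that match both is not stated in the sources used, which leaves the split of reads between ADAM1A and ADAM1B uncertain.

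ADAM32, a testis gene whose role is not settled, had 3896, 3877 and 3112 counts in mature testes, against 6, 11 and 7 counts in immature testes, with a log2 fold change of 8.80 (SE 0.21, adjusted p = 1.5e-08). ADAM29, a testis gene whose protein lacks the catalytic site, had 858, 800 and 671 counts in mature testes, against 1, 0 and 1 counts in immature testes. With 2 immature counts in all, the log2 ratio of the summed counts was 10.19, with an exact 95% interval of 8.33 to 13.24 that covers counting error only. Both genes were at the edge of detection in the immature libraries and plainly present in each mature one.

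ADAM7 stands apart from this group, since it is known as a gene of the epididymis, the duct in which sperm mature after leaving the testis. It did not pass the filter, with 0, 0 and 1 counts in mature testes, against 10, 1 and 0 counts in immature testes, a log2 ratio of summed counts of −3.46 with an exact 95% interval of −8.88 to −0.67. Nearly all of its counts lay in immature replicate 1. The epididymal gene GPX5 had 1, 1 and 0 counts in mature testes, against 149, 12 and 15 counts in immature testes, and was also highest in immature replicate 1. SPAG11B, another epididymal gene, went the other way, with 85, 90 and 73 counts in mature testes, against 17, 10 and 9 counts in immature testes (log2 fold change 2.77, SE 0.34). GPX5 passed the filter through the immature libraries alone and SPAG11B through the mature libraries alone. Of the 9 epididymal markers listed, 6 were in the table, and their summed level was 6.64, 7.18 and 6.69 CPM in mature testes, against 25.9, 5.44 and 11.7 CPM in immature testes. RNASE9, one of these markers, was at 0 in all 6 libraries, and the part of epididymal tissue in the ADAM7 counts was not tested.

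**Figure D3:**
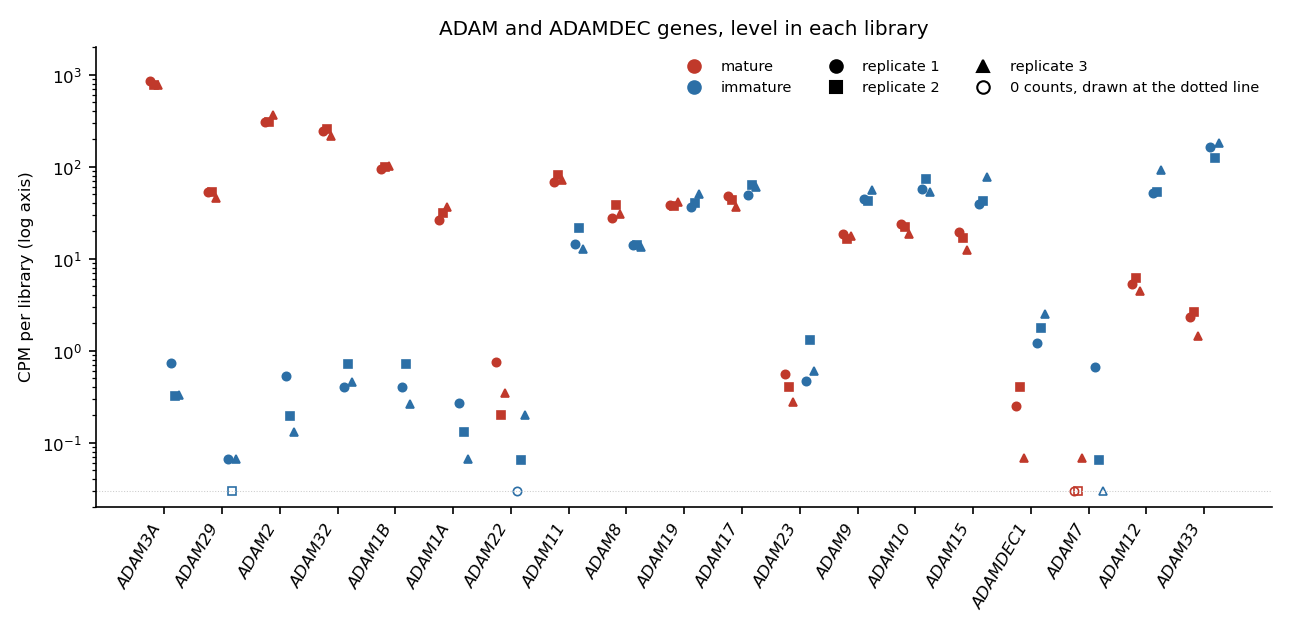
CPM per library (vertical log axis) of the 19 ADAM and ADAMDEC genes, ordered by the ratio of the group means, with mature libraries (red) left of immature libraries (blue) and 1 symbol per replicate number, where libraries with 0 counts are drawn open at the dotted line. ADAM3A, ADAM2, ADAM32, ADAM1B, ADAM29 and ADAM1A have wide gaps between the age groups, ADAM19 overlaps, and ADAM33 has the widest gap in the other direction among genes tested.

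The shedding enzymes and other widely expressed ADAM genes were mostly lower in mature testes. ADAM33, a gene of mesenchymal cells, had 37, 39 and 21 counts in mature testes, against 2435, 1907 and 2716 counts in immature testes. Its level was 2.13 ± 0.607 CPM in mature testes and 155 ± 28.9 CPM in immature testes (SD, n = 3 each), with a log2 fold change of −6.18 (SE 0.25, adjusted p = 1.53e-07), the largest decrease of the 38 genes tested. ADAM12, a sheddase of muscle, bone and placenta also called meltrin alpha, stood at 5.32, 6.17 and 4.41 CPM in mature testes, against 51.8, 53.0 and 91.4 CPM in immature testes, with a log2 fold change of −3.62 (SE 0.27). Both genes were lower in every mature library than in any immature one. The same held for the summed stromal, Sertoli, endothelial, peritubular and leukocyte markers, and groups did not overlap for 81.7% of all genes tested. The part of any of these cell types was not tested. ADAM12, but not ADAM33, had its highest immature library well above the other two.

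ADAM10, which sheds Notch receptors and the amyloid precursor protein, stood at 24.1, 22.0 and 18.8 CPM in mature testes, against 57.6, 72.8 and 52.9 CPM in immature testes, a log2 fold change of −1.50 (SE 0.17, adjusted p = 4.82e-05). ADAM9, a sheddase found in many tissues, changed about as much, at 18.6, 16.6 and 17.7 CPM in mature testes, against 44.6, 42.2 and 55.4 CPM in immature testes, a log2 fold change of −1.43 (SE 0.15). ADAM15, a member that binds integrins, was at −1.69 (SE 0.29), with 19.5, 17.0 and 12.5 CPM in mature testes, against 38.9, 42.9 and 76.8 CPM in immature testes. The age groups were apart for all 3 genes, as for 81.7% of all genes tested. ADAMDEC1, a secreted short member of macrophages and dendritic cells, had only 4, 6 and 1 counts in mature testes, against 18, 27 and 38 counts in immature testes, with a log2 fold change of −2.87 (SE 0.55, adjusted p = 0.00133). It passed the filter through the immature libraries alone, which favoured this direction. Of 7 leukocyte markers 6 were lower, 1 of them passing through the immature libraries alone.

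ADAM17, which releases tumor necrosis factor and ligands of the EGF receptor, changed less. It stood at 48.5, 43.9 and 36.6 CPM in mature testes, against 49.1, 63.5 and 60.2 CPM in immature testes. The groups were apart by a narrow margin, and the log2 fold change of −0.42 (SE 0.15, adjusted p = 0.0325) did not reach the fold threshold. ADAM19, which cuts neuregulins, had 38.4, 37.8 and 41.2 CPM in mature testes, against 36.6, 40.8 and 50.2 CPM in immature testes, with overlapping groups and a log2 fold change of −0.12 (SE 0.15, adjusted p = 0.466).

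ADAM8 and ADAM11 went the other way. ADAM8, best known from leukocytes, had 27.6, 38.7 and 30.6 CPM in mature testes, against 14.0, 14.0 and 13.3 CPM in immature testes, a log2 fold change of 1.23 (SE 0.16, adjusted p = 0.000156). Of 7 leukocyte markers 6 were lower and 1, the B cell gene MS4A1, was higher at 2.60 (SE 0.30), and their summed level was 64.0, 57.2 and 47.2 CPM in mature testes, against 186, 162 and 118 CPM in immature testes. The part of leukocytes in the ADAM8 values was not tested. ADAM11, a brain member without protease activity, had 68.4, 81.5 and 71.5 CPM in mature testes, against 14.5, 21.8 and 12.7 CPM in immature testes, a log2 fold change of 2.17 (SE 0.21, adjusted p = 2.12e-05). Its relatives ADAM22 and ADAM23, receptors of LGI proteins at nerve endings, stayed under the filter. ADAM22 had 12, 3 and 5 counts in mature testes, against 0, 1 and 3 counts in immature testes. ADAM23 had 9, 6 and 4 counts in mature testes, against 7, 20 and 9 counts in immature testes.

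On the ADAMTS side, the proteoglycanases, which cut aggrecan, versican and related proteins, gave 4 lower and 0 higher genes of 6 tested. Of all genes tested, 30.4% were lower and 31.7% higher. ADAMTS1 had 147, 130 and 69 counts in mature testes, against 1040, 775 and 2851 counts in immature testes, with a log2 fold change of −3.76 (SE 0.59, adjusted p = 0.00111). ADAMTS5, a main aggrecanase of cartilage, had 21, 12 and 11 counts in mature testes, against 127, 75 and 295 counts in immature testes, with a log2 fold change of −3.50 (SE 0.56). ADAMTS15 had 18, 21 and 6 counts in mature testes, against 50, 80 and 179 counts in immature testes, with a log2 fold change of −2.77 (SE 0.59). In each of these, immature replicate 3 was more than 2 times as high as either other immature library, and without it the log2 fold changes were −2.98, −2.78 and −2.11 with the calls kept. ADAMTS4, the other main aggrecanase, was more even at 1.13, 1.07 and 1.31 CPM in mature testes, against 7.57, 8.49 and 13.8 CPM in immature testes, with a log2 fold change of −3.08 (SE 0.32, adjusted p = 3.25e-05).

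ADAMTS9, ADAMTS20 and ADAMTS8 complete the proteoglycanases, and none of them was called. ADAMTS9 had 18.3, 17.9 and 14.9 CPM in mature testes, against 18.8, 20.1 and 57.1 CPM in immature testes, with a log2 fold change of −0.91 (SE 0.43, adjusted p = 0.0896). The groups were apart, but only by a small margin outside immature replicate 3, and the log2 fold change was −1.19 and called without immature replicate 1, −1.16 and called without immature replicate 2, and −0.19 and not called without immature replicate 3. ADAMTS20 was the 1 proteoglycanase above its immature values in every mature library, with 3.19, 2.75 and 3.03 CPM in mature testes, against 1.88, 1.30 and 2.12 CPM in immature testes, but its log2 fold change of 0.76 (SE 0.30, adjusted p = 0.0426) lay under the fold threshold. ADAMTS8 had 5, 7 and 4 counts in mature testes, against 5, 3 and 0 counts in immature testes, and was not tested.

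The 3 procollagen N-propeptidases, which trim the amino-terminal end of fibrillar procollagens, were all lower in mature testes. Among all genes tested, 30.4% were lower and 31.7% higher. ADAMTS2 had 10.3, 9.39 and 8.62 CPM in mature testes, against 86.6, 81.7 and 166 CPM in immature testes, a log2 fold change of −3.56 (SE 0.30, adjusted p = 1.42e-05). ADAMTS3 was at −2.02 (SE 0.26), with 2.13, 2.82 and 1.86 CPM in mature testes, against 10.6, 8.16 and 8.93 CPM in immature testes. ADAMTS14 was at −2.31 (SE 0.43), with 1.06, 1.74 and 0.828 CPM in mature testes, against 5.89, 3.50 and 8.74 CPM in immature testes. Groups were apart for each of them. Of the 5 fibrillar procollagen genes listed as their substrates, 4 were lower and 0 higher, beside the same shares of all genes tested. COL5A1 was at −5.48, COL1A1 at −5.34, COL1A2 at −5.28 and COL3A1 at −5.20, and the cartilage collagen COL2A1 was not called.

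ADAMTS7 and ADAMTS12, which cut cartilage oligomeric matrix protein (COMP), were both lower. ADAMTS7 had the smallest error of the ADAMTS side, with 115, 102 and 117 counts in mature testes, against 1114, 1370 and 1167 counts in immature testes and a log2 fold change of −3.44 (SE 0.14, adjusted p = 1.64e-07). ADAMTS12 had 2, 1 and 1 counts in mature testes, against 21, 25 and 17 counts in immature testes, with a log2 fold change of −3.85 (SE 0.47). COMP itself went the opposite way, with 4262, 4155 and 4008 counts in mature testes, against 27, 19 and 79 counts in immature testes and a log2 fold change of 6.63 (SE 0.49, adjusted p = 1.62e-05), which was 7.49 without immature replicate 3.

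ADAMTS6 and ADAMTS10 are close relatives that act on fibrillin microfibrils, and they moved in opposite directions. ADAMTS6 had 32.8, 33.1 and 35.9 CPM in mature testes, against 14.7, 7.0 and 17.9 CPM in immature testes, a log2 fold change of 1.36 (SE 0.30, adjusted p = 0.00339). ADAMTS10 had 16.8, 15.0 and 12.6 CPM in mature testes, against 57.7, 55.1 and 66.3 CPM in immature testes, a log2 fold change of −2.01 (SE 0.16, adjusted p = 5.42e-06). The age groups were apart for both. The fibrillin gene FBN1 was lower at −2.98 (SE 0.14). FBN2, the fibrillin gene with the higher mean in mature testes (113 CPM, against 51.3 CPM for FBN1), was not called at −0.53 (SE 0.12).

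ADAMTS17, in which mutations cause a short-stature syndrome of the connective tissue in humans, was lower with a log2 fold change of −3.84 (SE 0.23, adjusted p = 1.11e-06), at 6.39, 6.24 and 4.83 CPM in mature testes, against 108, 67.2 and 75.5 CPM in immature testes. The remaining protease genes, ADAMTS13, ADAMTS16, ADAMTS18 and ADAMTS19, were not called and had one thing in common, a high value in immature replicate 1. ADAMTS16, which cuts fibronectin, had 408, 316 and 488 counts in mature testes, against 252, 40 and 54 counts in immature testes. Its groups were apart, with a log2 fold change of 1.80 (SE 0.70, adjusted p = 0.0508), and without immature replicate 1 it was 3.11 and called (adjusted p = 2.38e-05). Over 15 alternatives with the same thresholds it was called higher in 7, and the adjusted p ran from 2.38e-05 to 0.117.

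ADAMTS18 had 98, 87 and 91 counts in mature testes, against 88, 36 and 17 counts in immature testes, with a log2 fold change of 0.96 (SE 0.52, adjusted p = 0.118), and 1.80 with a call without immature replicate 1. ADAMTS13, which cuts von Willebrand factor in blood, had 74, 112 and 137 counts in mature testes, against 279, 102 and 77 counts in immature testes, with overlapping groups and a log2 fold change of −0.49 (SE 0.51, adjusted p = 0.4) that became 0.28 without immature replicate 1. ADAMTS19 had 1, 13 and 11 counts in mature testes, against 33, 2 and 4 counts in immature testes, with a log2 fold change of −0.62 (SE 1.10, adjusted p = 0.62) that became 1.45 without immature replicate 1 and −0.03 without mature replicate 1. No direction can be given for ADAMTS13 and ADAMTS19 from these libraries.

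The ADAMTSL proteins bind the matrix without cutting it. ADAMTSL4, a binder of fibrillin microfibrils, had the largest decrease of the ADAMTS side, with 66, 59 and 35 counts in mature testes, against 1192, 1797 and 2304 counts in immature testes and a log2 fold change of −5.05 (SE 0.31, adjusted p = 2.17e-06). ADAMTSL2, which binds fibrillin and a latent TGF-beta binding protein, was lower at −2.53 (SE 0.35), with 4.57, 4.09 and 5.86 CPM in mature testes, against 29.4, 39.5 and 15.3 CPM in immature testes. ADAMTSL3 was higher, with 64, 69 and 46 counts in mature testes, against 3, 7 and 16 counts in immature testes and a log2 fold change of 2.77 (SE 0.51, adjusted p = 0.00105), or 3.55 without immature replicate 3. ADAMTSL1 overlapped, with 12.1, 14.1 and 8.14 CPM in mature testes, against 8.91, 6.61 and 16.0 CPM in immature testes, and its log2 fold change of 0.13 (SE 0.35, adjusted p = 0.752) turned negative under upper-quartile scaling and without immature replicate 2 or mature replicate 2.

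**Figure D4:**
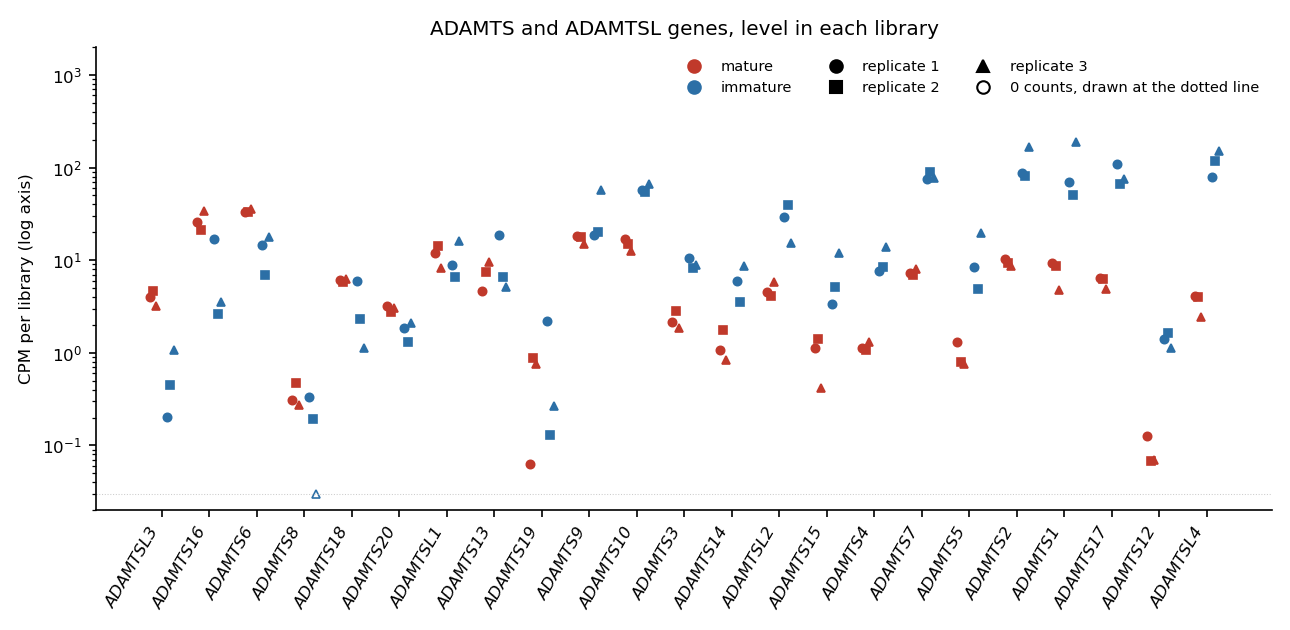
CPM per library (vertical log axis) of the 23 ADAMTS and ADAMTSL genes, ordered by the ratio of the group means, with mature libraries (red) left of immature libraries (blue), 1 symbol per replicate number and a library with 0 counts drawn open at the dotted line. The immature libraries spread more widely than the mature ones, with replicate 3 highest for ADAMTS1, ADAMTS5, ADAMTS9 and ADAMTS15 and replicate 1 highest for ADAMTS13, ADAMTS16, ADAMTS18 and ADAMTS19.

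The spread within an age was larger among the immature animals, and this was not confined to the family. Over all genes tested, log CPM correlated at 0.975, 0.963 and 0.973 between immature libraries, against 0.985, 0.983 and 0.983 between mature ones. The median ratio of the highest to the lowest library of a gene was 1.49 in mature testes and 2.53 in immature testes over the 22 ADAMTS and ADAMTSL genes tested, and 1.25 in mature testes and 1.76 in immature testes over the 16 ADAM and ADAMDEC genes tested. ADAM29, with 0 counts in 1 immature library, has no such ratio and is left out of the 1.76. The other germ cell ADAM genes had few immature counts, so counting error adds to that value. Immature replicate 3 was the highest immature library for 13 of the 22 ADAMTS and ADAMTSL genes and 6 of the 16 ADAM and ADAMDEC genes. The share of all genes tested with this library highest was not counted, so this cannot be read as a trait of the family. A gene was counted as standing out in a library where it exceeded each other library of the same age by more than 2 times and reached at least 5 CPM. By this count ADAMTS1, ADAMTS5, ADAMTS9 and ADAMTS15 stood out in immature replicate 3, as did 379 of all 19972 genes (1.9%), and ADAMTS13, ADAMTS16 and ADAMTS18 in immature replicate 1, as did 297 genes (1.49%). No family member stood out in the other 4 libraries.

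Other genes moved with these libraries. All 6 stromal markers were highest, among the immature libraries, in replicate 3, where the share over all genes tested was not counted. Summed endothelial and early germ cell markers were also highest there. Other lists were lowest there, with summed Sertoli markers at 6856, 7648 and 5904 CPM in immature replicates 1 to 3. Peritubular and smooth muscle markers stood at 2408, 1773 and 1312 CPM, and leukocyte markers at 186, 162 and 118 CPM. The summed level of 11 immediate-early genes, which cells switch on within minutes of a stimulus and which were listed after values had been seen, was 198, 208 and 186 CPM in mature testes, against 228, 354 and 1069 CPM in immature testes. All 11 were highest in replicate 3 among the immature libraries, a count that carries no weight because of how the list was chosen. In immature replicate 1 the epididymal markers stood at their highest, as given for ADAM7, and CDH1, an epithelial cadherin singled out after its values were seen, had 74, 101 and 141 counts in mature testes, against 613, 43 and 44 counts in immature testes. The part of stroma, of immediate-early induction or of epithelial tissue in the ADAMTS values was not tested.

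**Figure D5:**
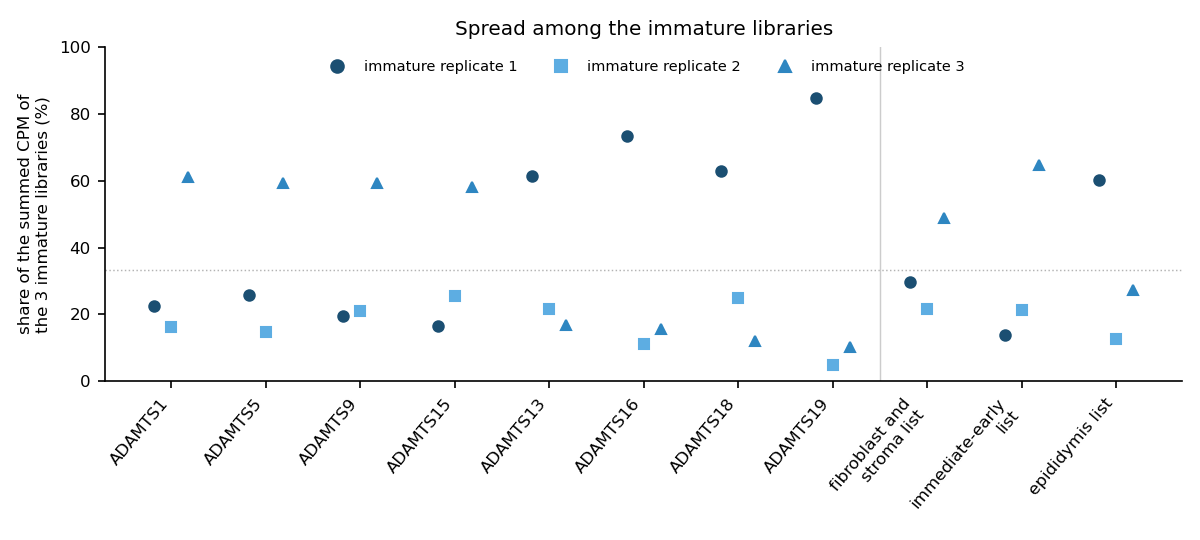
Share of the summed CPM of the 3 immature libraries (vertical axis, in percent) that each immature replicate took, for 8 ADAMTS genes (left of the line) and for the summed fibroblast and stroma, immediate-early and epididymis lists (right of the line), with the dotted line at an equal share. ADAMTS1, ADAMTS5, ADAMTS9 and ADAMTS15 are highest in replicate 3, as are the stromal and immediate-early lists, and ADAMTS13, ADAMTS16, ADAMTS18 and ADAMTS19 are highest in replicate 1, as is the epididymis list. The immediate-early list was chosen after values were seen, and the other marker lists are not drawn.

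Several members are neighbours in the genome. In ARS-UCD2.0, which is not the build of the counts and is used here for gene order only, ADAM9, ADAM32, ADAM2 and ADAM3A follow each other on chromosome 27 with 1 other coding gene between ADAM32 and ADAM2. Of these, ADAM32, ADAM2 and ADAM3A were higher in mature testes at 8.80, 10.11 and 10.73 on the log2 scale, and ADAM9, next to ADAM32, was lower at −1.43. ADAMTS5 and ADAMTS1, adjacent on chromosome 1, were both lower and both highest in immature replicate 3. ADAMDEC1, adjacent to ADAM7 on chromosome 8, was lower, and ADAM7 was not tested. ADAMTS15, next to ADAMTS8 on chromosome 29, was lower, and ADAMTS8 was not tested.

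The symbol rule leaves out 9 genes of the table that have only a locus number but a description naming an ADAM or ADAMTS protein. Of the 8 described as ADAM-like, 7 were higher in mature testes, beside 31.7% of all genes tested, and 1 was not tested. Of these 7, 4 reached the cutoff of the filter in every mature library and in no immature one, which fixed their direction, LOC786599 among them. LOC786599, described as an ADAM21-like pseudogene, had 1405, 1493 and 1499 counts in mature testes, against 0, 1 and 1 counts in immature testes, a log2 ratio of summed counts of 11.11 with an exact 95% interval of 9.25 to 14.15. LOC101910148, described as ADAM1A-like, had 1764, 1992 and 1749 counts in mature testes, against 38, 37 and 28 counts in immature testes, a log2 fold change of 5.74 (SE 0.17), and adds to the uncertainty about reads shared with ADAM1A and ADAM1B. The 1 ADAMTS-like gene, LOC101907060, described as ADAMTS7-like, was lower at −3.05 (SE 0.22), beside −3.44 for ADAMTS7, with which it may share reads.

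Genes that act on the family were described from lists. The calls in each list, here and below, stand beside 31.7% higher and 30.4% lower among all genes tested. ADAM precursors are cut by proprotein convertases, and of 6 tested 3 were higher and 2 lower. PCSK4, the convertase of germ cells, had 7580, 7502 and 8382 counts in mature testes, against 690, 787 and 479 counts in immature testes, a log2 fold change of 3.59 (SE 0.19, adjusted p = 6.93e-07). PCSK1 was higher at 2.34 and PCSK6 at 2.17, whereas PCSK2, of neuroendocrine cells, which passed the filter through the immature libraries alone, was lower at −3.66 (−4.78 without mature replicate 1). FURIN, the widely expressed convertase, was lower at −1.60 (SE 0.11), with 29.6 ± 2.13 CPM in mature testes and 89.4 ± 1.72 CPM in immature testes (SD, n = 3 each).

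Sperm ADAM proteins depend in mice on chaperones and surface proteins of germ cells. The list used was wider, and also held other sperm genes, widely expressed chaperones and an epididymal gene. Of its 16 genes tested, 12 were higher and 3 lower. The filter favoured the direction of 7 of the 12, which passed it through the mature libraries alone, and the 4 named next are among these. CMTM2 was higher at 11.05 (SE 0.30), PDILT, a disulfide isomerase of the testis, at 10.27 (SE 0.21), PRSS37, a protease-like sperm protein, at 9.38 (SE 0.28) and CALR3, a testis form of calreticulin, at 8.09 (SE 0.27). CALR3 had 2763, 2621 and 2612 counts in mature testes, against 12, 13 and 4 counts in immature testes. The widely expressed chaperone CANX was lower at −1.67 (SE 0.13), and RNASE10, an epididymal gene that in mice is needed for ADAM3 on sperm, was lower at −2.97 (SE 0.47), with 17, 15 and 21 counts in mature testes, against 205, 61 and 151 counts in immature testes.

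Partners that carry ADAM10 and ADAM17 to the cell surface were lower in 5 of 8 tested, with 0 higher. The tetraspanin TSPAN15, a partner of ADAM10, was at −2.81, TSPAN33 at −2.32, TSPAN14 at −2.20, and the iRhom RHBDF1, a partner of ADAM17, at −2.43. The other iRhom, RHBDF2, had 315, 73 and 62 counts in mature testes, against 330, 677 and 265 counts in immature testes. It overlapped between the groups and was not called, with a log2 fold change of −1.53 (SE 0.67, adjusted p = 0.0769) that was −2.53 and called without mature replicate 1. POFUT2, which adds a fucose to thrombospondin repeats of ADAMTS proteins, was lower at −1.75 (SE 0.13).

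Of 7 inhibitors, 6 were lower and 0 higher. TIMP3, the tissue inhibitor of metalloproteases that acts on ADAM17 and on the aggrecanases, had 1322, 1122 and 894 counts in mature testes, against 11183, 12345 and 16567 counts in immature testes, with a log2 fold change of −3.59 (SE 0.19, adjusted p = 6.28e-07). TIMP2 was lower at −3.85, TIMP1 at −2.80 and PAPLN, a papilin with thrombospondin repeats, at −2.43. TIMP4 was not called.

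Substrates and binding partners were mostly lower too. Among the 4 hyalectans, the proteoglycans cut by the proteoglycanases, VCAN was lower at −2.73 (SE 0.31), whereas BCAN was higher at 2.20 (SE 0.38) and NCAN at 1.17 (SE 0.36, adjusted p = 0.0152), the call of NCAN being lost at 0.97 with upper-quartile scaling and at 0.92 without mature replicate 1. Of 9 microfibril genes and other partners 6 were lower, among them VWF at −2.95 and LTBP2 at −2.84, and 1, COMP, was higher. Of 21 shed substrates tested 14 were lower, including TNF at −3.60 (−4.20 without mature replicate 1), APP at −3.39 and L1CAM at −3.23. TNF and L1CAM passed the filter through the immature libraries alone. The EGF receptor ligands AREG and EREG were the 2 that were higher, and both passed it through the mature libraries alone, so the filter favoured the direction of all 4. AREG had 225, 245 and 204 counts in mature testes, against 7, 10 and 9 counts in immature testes, a log2 fold change of 4.68 (SE 0.25). EREG was at 3.16 (SE 0.77), and 2.57 without immature replicate 2 or 4.38 without immature replicate 3. Of 9 integrins that bind disintegrin domains 6 were lower and 0 higher, with ITGA6 at −3.91, ITGAV at −2.84, ITGB7 at −2.74 and ITGB5 at −2.33.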

How the data were processed

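Polyadenylated RNA of 6 testes was sequenced on an Illumina instrument. The authors aligned the reads with Hisat2 to Btau_5.0.1 after a Fast-QC check and deposited whole-number counts for every gene in each library. The tool versions, annotation, counter and strand setting were not given in the sources used here. Deposited comparison tables, which hold the authors' signals, fold changes and FDR, and the small RNA tables were not used, and 0 count columns were left out. Gene order came from the RefSeq table of ARS-UCD2.0.

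The fit used edgeR 4.0.16 under R 4.3.3 (TMM, filterByExpr, quasi-likelihood fit with the robust option, F test), with limma 3.58.1 and DESeq2 1.42.0 as alternatives, and tables were made in Python 3.11.15. CPM uses the filtered library total times the TMM factor, and the SE was taken as the absolute log2 fold change divided by the root of F. The fit was tested on simulated data. Of 30983 genes, 28656 had a count and 19972 were tested, at library totals of 14139087 to 15846257. Libraries of 1 age differed by more than counting error. The chi-square per degree of freedom was 9.60 to 13.04 between mature libraries and 21.18 to 38.84 between immature ones. Intervals of ratios are exact and cover counting error only.

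All family symbols are accounted for. From each other list at most 4 called genes with the largest change, and up to 2 called the other way, are named, with TIMP3, FURIN and RHBDF2 in any case. CDH1, COL2A1, FBN2, TIMP4, GPX5, SPAG11B, RNASE9, MS4A1 and the genes with a locus number were named after their values were seen. Members and lists were chosen with earlier results of these data known. No sequence is shown.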

Additional observations from a re-analysis of the deposited data

How the results depend on the processing

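Of the 38 family genes tested, 29 kept their direction and call under all 16 alternatives, and 31 when the fold threshold was also kept. The counts of ADAM genes stayed at 8 higher and 6 lower in every alternative except that without a fold threshold, which gave 7 lower. On the ADAMTS side 4 genes were called higher with limma-voom, against 2 in the reported fit, and leaving out 1 library gave 2 to 4. ADAMTSL1 was at −0.072 with upper-quartile factors and ran from −0.13 to 0.56 when 1 library was left out, ADAMTS13 from −0.81 to 0.28, ADAMTS19 from −1.14 to 1.45 and ADAM19 from −0.23 to 0.014. The causes were not tested. Upper-quartile factors moved the median of all genes by −0.20. A replicate block gave 8 higher and 6 lower ADAM genes, 3 higher and 13 lower ADAMTS and ADAMTSL genes, and 6337 higher and 5982 lower genes in all, and it added a call of ADAMTS16 at 2.24 (adjusted p = 0.0191 by edgeR). The sample labels give no pairing of animals by replicate number. Deviations of same-numbered libraries correlated at −0.033, −0.019 and −0.014, which with 3 libraries per age cannot exclude a factor shared by some genes. With 3 libraries per age, depth limits ADAM7, ADAM22, ADAM23 and ADAMTS8, which were not tested.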
